A study of Mus musculus with 8 samples.

Results

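The genes of the matrix metalloproteinases (MMPs) and of their inhibitors, the tissue inhibitors of metalloproteinases (TIMPs), were examined in the lungs of a mouse model of emphysema. They were taken as a list of 10 symbols, 6 MMPs (Mmp2, Mmp3, Mmp9, Mmp12, Mmp14 and Mmp19) and 4 TIMPs (Timp1, Timp2, Timp3 and Timp4), out of 52636 gene identifiers with read counts in 8 libraries. The list sets no threshold on expression. All 10 were found in the count data, and all 10 passed the filter on low counts, as did 20546 genes in all.

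MMPs are zinc-dependent enzymes that are made as inactive precursors and, once activated, cut collagens, elastin and other proteins outside the cell. TIMPs bind to the active site of MMPs and block it, so that the level of an MMP transcript alone does not give the activity in a tissue. Loss of alveolar walls and of their elastin fibres defines emphysema, and the macrophage elastase encoded by Mmp12 is among the enzymes best known for it in mice.

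RNA was sequenced from lungs of wild type mice, male C57BL/6 animals per the study's methods, in 4 groups of 2 libraries each. Control mice received phosphate-buffered saline (PBS). Model mice (elastase+LPS in the labels) were given porcine pancreatic elastase through the trachea at 10 weeks of age and lipopolysaccharide (LPS), a bacterial wall component, from 12 weeks. Each of the 2 treatments was combined with a control diet (labelled NT) or with a diet holding 2% TJ-41, the herbal medicine hochuekkito, given from 8 weeks. Elastase and LPS were always given together, so their effects cannot be told apart. Neither the age at which these lungs were taken nor the number of animals behind a library is given in the sources used here, and the p-values therefore measure only the spread between these libraries, which may be technical.

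The libraries held 18767295 to 20888042 counts, and a gene with no count in a library could have lain at up to 0.153 to 0.162 in its CPM (counts divided by the library total and put on a common scale), which covers counting error only. Alveolar epithelial markers summed to between 18472 and 38910 CPM in every library, as the lung label implies, and heart muscle markers summed to between 318 and 786 CPM. Replicate 2 of the elastase+LPS, control diet group stood apart. The replicate difference of log2 CPM had an SD over genes of 0.798 in that group and of 0.394 to 0.469 in the other groups, and this library was the highest or lowest of the 8 for 57.4% of the genes tested and for 7 of the 10 MMP and TIMP genes. The circadian clock list also differed between the PBS and the elastase+LPS libraries. With diets averaged, 9 of its 17 genes were called higher and 3 lower, against 0.443% of all genes called. Its summed level lay between 775 and 1029 CPM in the 4 PBS libraries and between 2015 and 2109 CPM in the 4 elastase+LPS libraries. The hour at which the lungs were taken is not given in the sources used here. A difference in it between the arms cannot be told apart from elastase+LPS. The part of the clock genes in the results below was not tested.

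The levels of the 10 genes per length covered more than 2 orders of magnitude. In RPKM (CPM per kilobase of exon, mean ± SD over the 8 libraries), Timp2 was highest with 233 ± 32.6, followed by Timp3 with 92.1 ± 13.3. Timp2 and Timp3 made up between 98.4% and 99.5% of the CPM of the 4 TIMPs in each library, whereas Timp4 was the lowest of all 10 genes with 0.435 ± 0.119 RPKM. Among the MMPs, the gelatinase gene Mmp2 was highest with 51.8 ± 23.1 RPKM and held between 41% and 64.4% of the CPM of the 6 MMPs. Mmp3, which encodes stromelysin, followed with 21.2 ± 6.9 RPKM, and Mmp14, a membrane-anchored MMP, with 12.6 ± 1.87 RPKM. Mmp19 had 7.14 ± 1.63 RPKM, Mmp9 3.96 ± 0.957 RPKM and Mmp12 1.75 ± 0.877 RPKM. The order of Mmp3 and Mmp14 depended on the length used. With the longest transcript in place of all exons, Mmp14 had 23.2 RPKM and Mmp3 21.2 RPKM, while Timp3 had 159 RPKM and Mmp12 2.83 RPKM. In the order by all exons the ranges over libraries of Timp3 and Mmp2, Mmp2 and Mmp3, Mmp3 and Timp1, Timp1 and Mmp14, and Mmp9 and Mmp12 overlapped. Within the same library, however, Mmp2 was above Mmp3 in 8 of 8, and Timp3 was above Mmp2, Mmp3 above Timp1 and Mmp9 above Mmp12 each in 7 of 8. Timp1 (12.9 ± 7.55 RPKM on average) was above Mmp14 in 2 of 8 libraries.

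**Figure D1:**
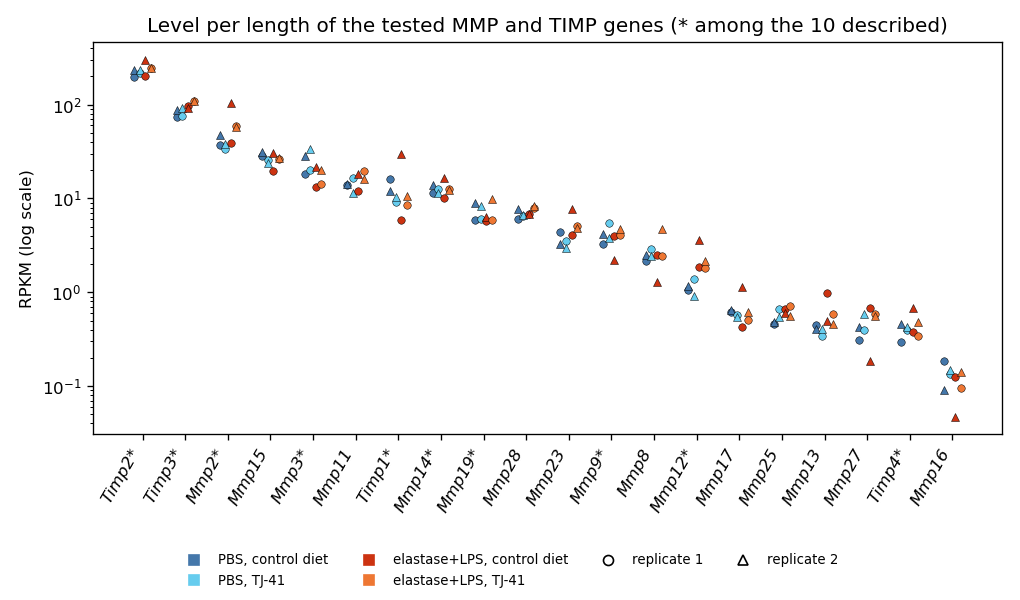
Level per length (RPKM, logarithmic axis) of the 20 MMP and TIMP genes that passed the filter, ordered by their mean, with an asterisk on the 10 genes described. Each point is 1 library, the colour gives the group and the shape the replicate number; Timp2 is at the top with a mean of 233, Mmp12 lies at 1.75, and replicate 2 of the elastase+LPS, control diet group (triangle, dark red) is the highest or lowest point for many genes.

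The first question was which of these genes differed between model mice and control mice. Mmp12 had the largest difference of the 10, about 2-fold higher in the elastase+LPS libraries, and Mmp2 was second, but neither passed the threshold. A gene was called when its log2 fold change went beyond 1 at a false discovery rate under 0.05 in edgeR's quasi-likelihood test over all genes. With the 2 diets averaged (4 libraries against 4), 0 of the 10 genes were called, against 91 of 20546 genes in all (0.443%). The same count was 0 of 10 with the control diet alone (25 genes called in all, 0.122%) and 0 of 10 with the TJ-41 diet alone (16 genes called in all, 0.0779%). Before adjustment, 3 of the 10 genes (Mmp12, Mmp2 and Timp3) had p under 0.05 in the averaged comparison by edgeR's quasi-likelihood test, all 3 higher with elastase+LPS, while 6.18% of all genes were higher at that level. By DESeq2, 1 of the 10 genes, Mmp12, was called in the averaged comparison (245 genes in all) and in the control diet comparison (171 genes in all). The median log2 fold change of the 10 was 0.17 with diets averaged, beside -0.0017 over all genes tested.

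**Figure D2:**
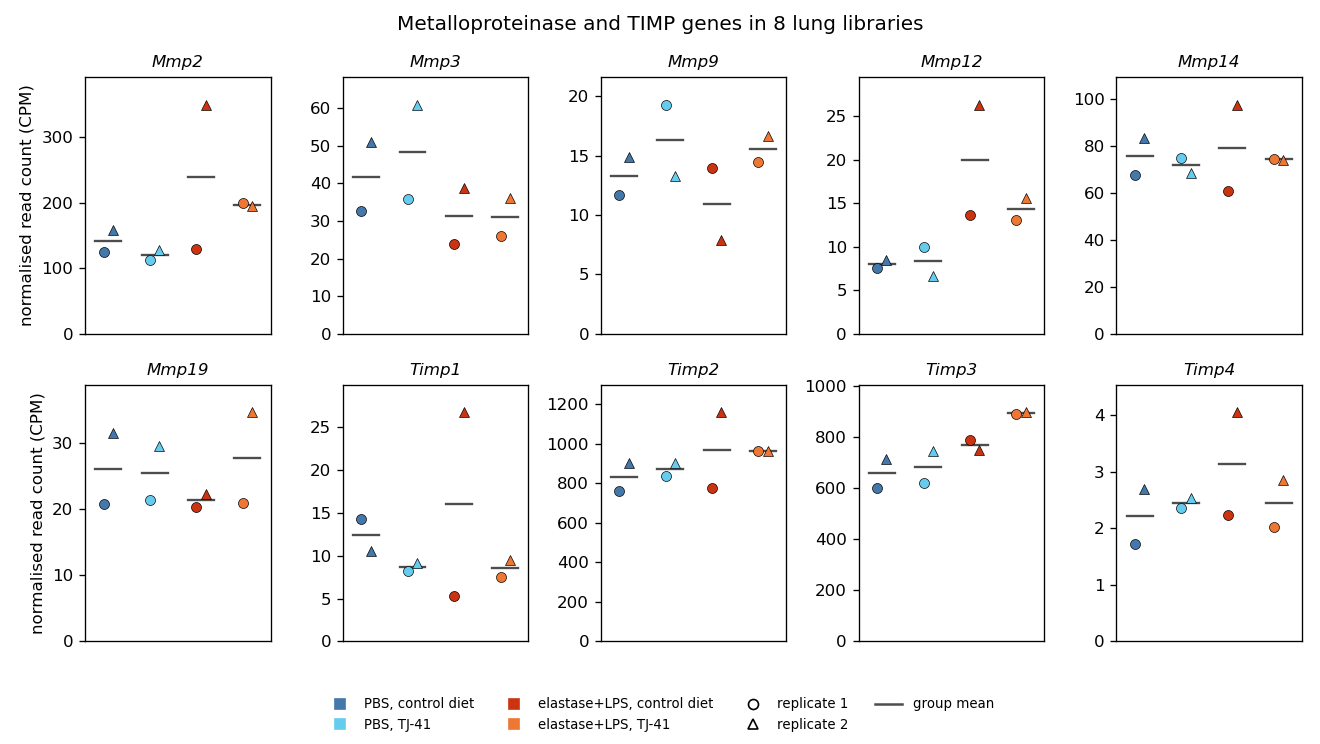
Normalised read count (CPM, scaled by the trimmed mean of M values) of the 10 genes in each of the 8 libraries, with 1 panel per gene and an axis from 0. Colours mark the 4 groups, circles and triangles mark replicates 1 and 2, and horizontal lines mark group means; the 4 elastase+LPS points of Mmp12 (13 to 26.3 CPM) lie above all 4 PBS points (6.65 to 10 CPM).

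Mmp12 encodes macrophage elastase, which cuts elastin. It had 7.58 and 8.51 CPM in the PBS, control diet libraries, 10 and 6.65 CPM with PBS and TJ-41, 13.6 and 26.3 CPM with elastase+LPS and control diet, and 13 and 15.6 CPM with elastase+LPS and TJ-41. The lowest model library was thus above the highest PBS library, and the highest value was that of the library that stood apart. With diets averaged, the log2 fold change was 1.04 ± 0.24 (SE; 95% interval 0.51 to 1.58), a 2.06-fold difference. By edgeR's quasi-likelihood test its p was 0.00165 and its Benjamini-Hochberg adjusted p 0.125. It ranked 271 of the 20546 genes by p. Mmp12 and Timp3 were the 2 of the 10 genes whose 4 elastase+LPS libraries all lay above the 4 PBS libraries, a pattern held by 3.35% of all genes. On the control diet the log2 fold change of Mmp12 was 1.31 ± 0.34 (adjusted p = 0.333 by edgeR's quasi-likelihood test), and on the TJ-41 diet it was 0.78 ± 0.33 (adjusted p = 0.753 by edgeR's quasi-likelihood test).

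The call for Mmp12 depended on the test, on the filter on low counts and on 1 library. DESeq2 gave the same averaged log2 fold change of 1.04 with an adjusted p of 0.00269, and testing all genes with at least 1 count by edgeR's quasi-likelihood test gave an adjusted p of 0.0209. Without replicate 1 of the elastase+LPS, control diet group, the log2 fold change was 1.24 with an adjusted p of 0.0018 by edgeR's quasi-likelihood test, in a fit that called 873 genes in all. Without replicate 2, the library that stood apart, it was 0.77 with an adjusted p of 0.0585 by the same test, in a fit that called 214 genes. Over all alternatives the adjusted p of the averaged comparison ran from 0.0018 to 0.555, and the fold change was positive in each.

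Mmp12 and Mmp3 lie in a cluster of 10 MMP genes that spans 427 kb of chromosome 9 (GRCm38). Mmp12 is at chr9:7344381-7369499 and Mmp3 at chr9:7445822-7455975, both on the plus strand. Their promoters are shown because these members of the cluster had averaged log2 fold changes of opposite sign. Beside them is that of Timp1, whose log2 fold change had the largest SE of the 10. The windows run from 250 bases before to 50 bases after a RefSeq start site of GRCm38.p6, 5′ to 3′ on the plus strand, in lower case. Capitals mark TGANTCA, the letters bound by AP-1 factors, and the TATA box TATAAA. The E-box CACGTG of clock factors was searched as well. All motifs were sought on both strands, and none of the matches overlap. The windows are chr9:7347124-7347423 for the second of the 2 RefSeq starts of Mmp12, chr9:7445572-7445871 for Mmp3 and chrX:20869916-20870215 for Timp1.
Mmp12: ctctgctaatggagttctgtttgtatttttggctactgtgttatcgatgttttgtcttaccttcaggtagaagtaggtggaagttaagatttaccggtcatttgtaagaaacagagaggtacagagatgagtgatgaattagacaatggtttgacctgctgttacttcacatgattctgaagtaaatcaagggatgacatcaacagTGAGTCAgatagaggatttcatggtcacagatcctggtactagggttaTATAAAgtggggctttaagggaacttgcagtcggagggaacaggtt
Mmp3: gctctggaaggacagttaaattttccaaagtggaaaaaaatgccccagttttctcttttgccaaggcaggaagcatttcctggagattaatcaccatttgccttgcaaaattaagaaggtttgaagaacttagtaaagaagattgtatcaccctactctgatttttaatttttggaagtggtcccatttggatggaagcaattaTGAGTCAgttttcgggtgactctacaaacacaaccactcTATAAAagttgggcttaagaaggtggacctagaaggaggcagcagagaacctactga
Timp1: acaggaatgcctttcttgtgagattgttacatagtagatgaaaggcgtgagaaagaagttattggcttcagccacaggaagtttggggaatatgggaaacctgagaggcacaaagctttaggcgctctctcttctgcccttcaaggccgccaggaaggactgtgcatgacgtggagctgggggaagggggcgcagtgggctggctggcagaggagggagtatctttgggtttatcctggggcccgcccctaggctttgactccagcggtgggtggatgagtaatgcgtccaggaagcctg

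The Mmp12 and Mmp3 windows held the same motifs in the same order. TGAGTCA began at -44 in Mmp12 and at -46 in Mmp3, counted from the start site, and TATAAA began at 5 and at -7. Of all 32851 promoter windows of 300 bases, 7.81% held TGANTCA, 13.6% held TATAAA and 7.15% held CACGTG. None of the 3 motifs was found in the window of the other Mmp12 start (chr9:7344147-7344446), nor in those of Mmp14, Timp1, Timp2, Timp3 and Timp4. RefSeq windows were matched for 7 of the 10 genes, and Mmp2, Mmp9 and Mmp19 had none. The Mmp12 and Mmp3 windows held 40.7% and 40% G and C, below the median of 52.7% over all windows, and those of Timp2 and Timp3 held 68.7% and 67%. A motif match describes the letters only.

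Mmp3 lies in the same chromosome 9 cluster as Mmp12 and encodes stromelysin, which cuts proteoglycans and activates other MMP precursors. It had 32.6 and 51 CPM in the PBS, control diet libraries and 35.8 and 61 CPM with PBS and TJ-41. With elastase+LPS it had 24 and 38.9 CPM on the control diet and 25.9 and 36.1 CPM on the TJ-41 diet. The 2 libraries of each group lay far apart, and the PBS and elastase+LPS libraries overlapped. The averaged log2 fold change was -0.53 ± 0.24, with a p of 0.0564 and an adjusted p of 0.497 by edgeR's quasi-likelihood test. The values were -0.41 ± 0.34 on the control diet and -0.64 ± 0.34 on the TJ-41 diet.

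Mmp2 encodes gelatinase A, which cuts type IV collagen and denatured collagens. It had 124 and 158 CPM in the PBS, control diet libraries, 112 and 128 CPM with PBS and TJ-41, 130 and 350 CPM with elastase+LPS and control diet, and 199 and 195 CPM with elastase+LPS and TJ-41. The high value of 350 CPM came from the library that stood apart, and its partner lay within the PBS range. The averaged log2 fold change was 0.74 ± 0.26 (95% interval 0.14 to 1.33), with a p of 0.0204 and an adjusted p of 0.36 by edgeR's quasi-likelihood test. It was 0.30 without that library and 1.01 without its partner. On the control diet it was -0.12 without that library and 1.30 without its partner. On the TJ-41 diet the 2 elastase+LPS libraries were above the 2 PBS libraries, with a log2 fold change of 0.72 ± 0.37 and an adjusted p of 0.773 by edgeR's quasi-likelihood test. On that diet 4 of the 10 genes (Mmp2, Mmp12, Timp2 and Timp3) had model libraries above both PBS libraries, as did 28.5% of all genes, and on the control diet 2 of 10 (Mmp12 and Timp3), as did 13.6% of all genes.

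Mmp14 encodes a membrane-anchored MMP that activates the Mmp2 precursor. It had 67.7, 83.2, 75 and 68.3 CPM in the 4 PBS libraries, the control diet libraries first, and 60.9, 97.5, 74.4 and 74 CPM in the 4 elastase+LPS libraries in the same order. The elastase+LPS, control diet group held both its lowest and its highest value, and the averaged log2 fold change was 0.06 ± 0.16. Its 95% interval was -0.30 to 0.42.

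Mmp9 encodes gelatinase B, which neutrophils store in granules. It had 11.7, 14.9, 19.3 and 13.3 CPM in the PBS libraries and 14, 7.85, 14.5 and 16.7 CPM in the elastase+LPS libraries, each with the control diet first. The lowest value was again that of the library that stood apart, here in the direction opposite to Mmp2 and Mmp12. The averaged log2 fold change of Mmp9 was -0.17 ± 0.22 and went to 0.012 without that library. Mmp8, the neutrophil collagenase, had its lowest value of 3.13 CPM in the same library and its highest of 11.3 CPM in replicate 2 of the elastase+LPS, TJ-41 group. The summed neutrophil markers had their lowest value, 216 CPM, and their highest, 476 CPM, in the same 2 libraries. S100a8 and S100a9 followed that sum, whereas Cd177 and Ltf were highest in the library where it was lowest. Mmp9 itself was highest, at 19.3 CPM, in replicate 1 of the PBS, TJ-41 group. The part of neutrophils in these values was not tested.

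Mmp19, which cuts basement membrane proteins, had 20.8, 31.6, 21.4 and 29.6 CPM in the PBS libraries. It had 20.4, 22.4, 21 and 34.7 CPM in the elastase+LPS libraries, in the same order of diets and replicates. The 2 arms overlapped throughout, and the averaged log2 fold change was -0.083 ± 0.21.

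**Figure D3:**
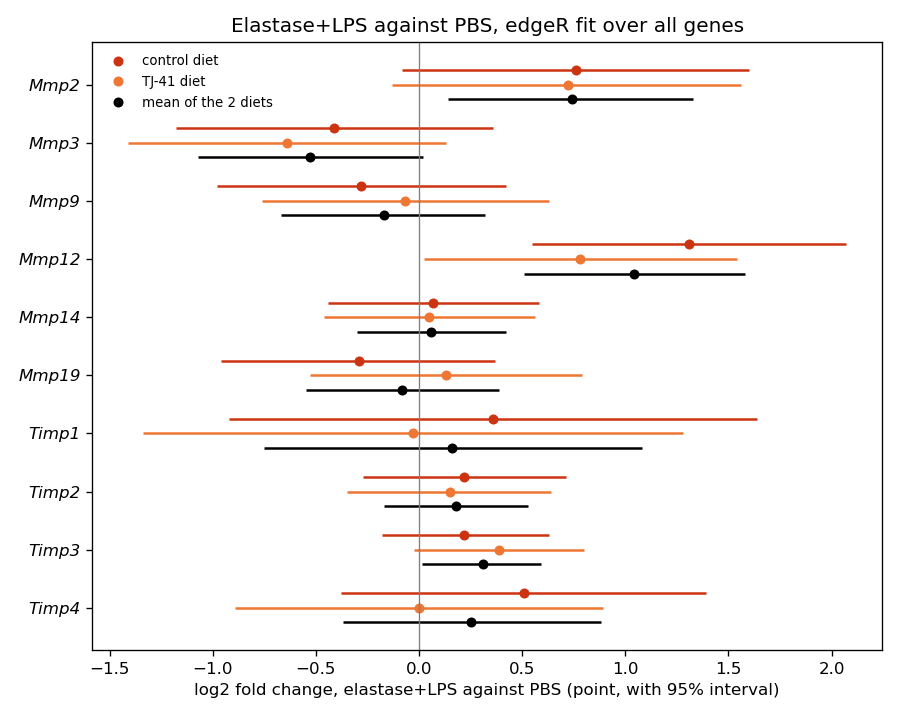
Log2 fold change of elastase+LPS against PBS for the 10 genes (horizontal axis), with the control diet in dark red, the TJ-41 diet in orange and the mean of both diets in black. Points are edgeR estimates and lines are 95% intervals; with the diets averaged the intervals of Mmp12 (0.51 to 1.58), Mmp2 (0.14 to 1.33) and Timp3 (0.016 to 0.59) lie above 0.

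Among the inhibitors, Timp3 differed most evenly and Timp1 least evenly. Timp3, the TIMP that binds to the extracellular matrix, had 600 and 714 CPM in the PBS, control diet libraries and 621 and 744 CPM with PBS and TJ-41. It had 789 and 747 CPM with elastase+LPS and control diet, and 889 and 895 CPM with elastase+LPS and TJ-41. The lowest model library was just above the highest PBS library. The averaged log2 fold change of Timp3 was 0.31 ± 0.13 (95% interval 0.016 to 0.59), a 1.24-fold difference, with a p of 0.0409 and an adjusted p of 0.454 by edgeR's quasi-likelihood test. It stayed between 0.24 and 0.38 when any library was left out.

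Timp1, the TIMP induced by many inflammatory signals, had 14.3 and 10.6 CPM in the PBS, control diet libraries and 8.2 and 9.19 CPM with PBS and TJ-41. With elastase+LPS it had 5.27 and 26.7 CPM on the control diet and 7.51 and 9.51 CPM on the TJ-41 diet. The lowest and the highest of the 8 values were thus the 2 replicates of a single group. The averaged log2 fold change was 0.16 ± 0.41, with an adjusted p of 0.892 by edgeR's quasi-likelihood test. Without replicate 2 of that group it was -0.63 (adjusted p = 0.125 by edgeR's quasi-likelihood test), and without replicate 1 it was 0.54 (adjusted p = 0.0381 by edgeR's quasi-likelihood test, below the fold threshold).

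Timp2, which blocks MMPs and also takes part in the activation of the Mmp2 precursor, had 762 to 905 CPM in the PBS libraries and 777 to 1159 CPM in the elastase+LPS libraries. Its averaged log2 fold change was 0.18 ± 0.15. Timp4, a TIMP best known from heart and fat, had 1.73 to 2.7 CPM in the PBS libraries and 2.03 to 4.05 CPM with elastase+LPS, and its averaged log2 fold change was 0.25 ± 0.28. Both had their highest value in the library that stood apart. Without it, the log2 fold change was 0.032 for Timp2 and 0.017 for Timp4.

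Ratios of protease to inhibitor reads were formed within each library, without a test. The ratio of Mmp12 to Timp1 in CPM was 0.531 and 0.8 in the PBS, control diet libraries, 1.23 and 0.724 with PBS and TJ-41, 2.57 and 0.985 with elastase+LPS and control diet, and 1.74 and 1.65 with elastase+LPS and TJ-41. Its mean was 0.82 ± 0.293 (SD, n = 4) with PBS and 1.74 ± 0.652 (SD, n = 4) with elastase+LPS, and the arms overlapped. The summed CPM of the 6 MMPs over that of the 4 TIMPs was 0.194 ± 0.0133 (SD, n = 4) with PBS and 0.208 ± 0.0498 (SD, n = 4) with elastase+LPS, a difference smaller than the spread between libraries. The direction rested on the library that stood apart, which had 0.28, since without it the elastase+LPS mean was 0.184, below that of PBS (this was computed after seeing the data).

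**Figure D4:**
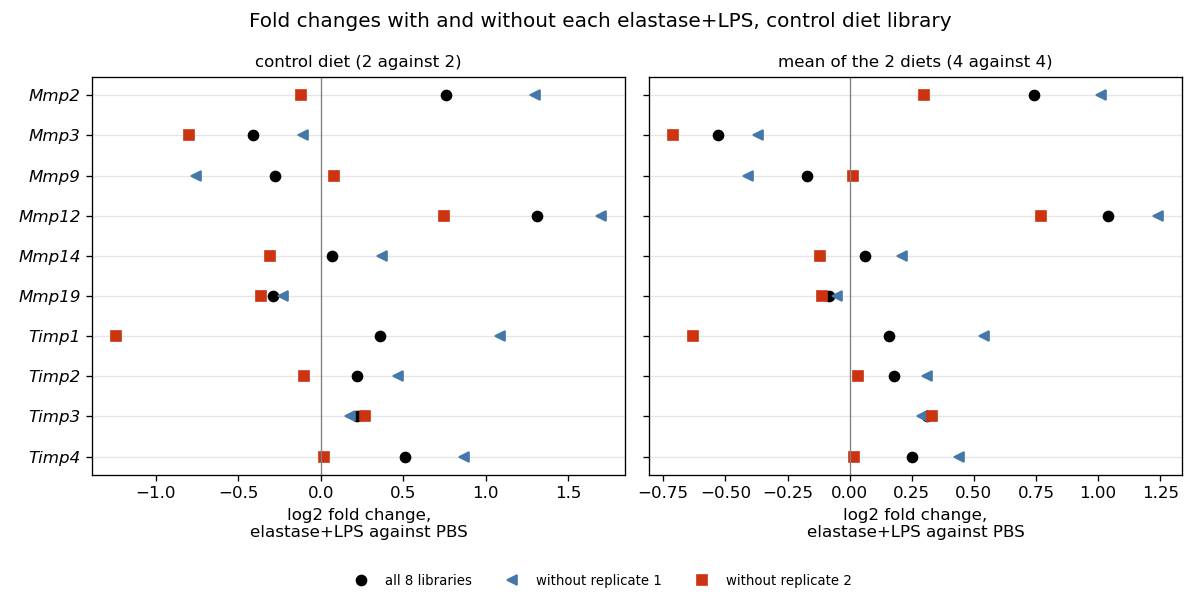
Log2 fold change of elastase+LPS against PBS for the 10 genes with all 8 libraries (black circles), without replicate 1 (blue triangles) and without replicate 2 (dark red squares) of the elastase+LPS, control diet group. The left panel shows the control diet and the right panel the mean of both diets; on the left, Timp1 runs from -1.24 to 1.09 and Mmp2 from -0.12 to 1.30, whereas Mmp12 stays between 0.75 and 1.70.

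The control diet values rested on which of the 2 elastase+LPS libraries was kept. Without replicate 1, edgeR's quasi-likelihood test called 3 of the 10 genes on the control diet, namely Mmp2 (log2 fold change 1.30, adjusted p = 0.00279), Mmp12 (1.70, adjusted p = 0.00428) and Timp1 (1.09, adjusted p = 0.018). That fit called 1343 genes in all, against 25 with every library. Without replicate 2 it called 0 of the 10 genes and 140 in all on that diet, and the estimate for Timp1 was -1.24 (adjusted p = 0.0823 by edgeR's quasi-likelihood test). In either fit the lone library was assumed to vary like the other groups. Across the 8 libraries the log2 CPM of Mmp2 and Timp2 had a Pearson r of 0.91, those of Mmp2 and Mmp12 0.84 and those of Mmp14 and Timp2 0.83, while Mmp9 and Timp1 had -0.78. These are descriptions over 8 libraries that share the library that stood apart.

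The second question was whether the TJ-41 diet went with a difference in these genes. In PBS mice 0 of the 10 genes were called, as were 0 of all 20546 genes (0%), and none of the 10 reached an unadjusted p under 0.05, while 1.64% of all genes did, by edgeR's quasi-likelihood test. DESeq2 called 0 of the 10 genes and 10 genes in all. The log2 fold changes of the 10 lay between -0.52 and 0.30. Timp1, the lowest of them, was the only gene of the 10 whose 2 TJ-41 libraries were both below the 2 control diet libraries, as were those of 19.1% of all genes.

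In the elastase+LPS mice the diet comparison called 0 of the 10 genes and 1 gene in all (0.00487%), with 0 of the 10 and 4.1% of all genes at an unadjusted p under 0.05 by edgeR's quasi-likelihood test and 0 of the 10 called by DESeq2. The log2 fold changes of the 10 lay between -0.91 (Timp1, resting on the 26.7 CPM of the library that stood apart) and 0.51 (Mmp9). Mmp9 and Timp3 were higher in both TJ-41 libraries than in both control diet libraries, a pattern of 14.1% of all genes. For Mmp12 the log2 fold change was -0.47 ± 0.33 (95% interval -1.21 to 0.27, adjusted p = 0.991 by edgeR's quasi-likelihood test) and became 0.081 without the library that stood apart. For Timp1 the log2 fold change was -1.65 when replicate 1 of the control diet group was left out. Without replicate 2, the library that stood apart, the remaining control diet library had 5.27 CPM. Both TJ-41 libraries, at 7.51 and 9.51 CPM, were above it, so the direction turned. Heart muscle markers moved with this comparison. Their sum was 672 and 786 CPM with the control diet and 395 and 318 CPM with TJ-41, 10 of 10 had lower values with TJ-41 although 0 passed the threshold, and their part in these values was not tested.

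The difference between the 2 diet effects, which is the same as the difference between the 2 elastase+LPS effects, was tested as an interaction. None of the 10 genes was called (0 of 20546 in all, 0%), and 0 of the 10 and 672 genes in all (3.27%) had an unadjusted p under 0.05 by edgeR's quasi-likelihood test. By DESeq2, 0 of the 10 and 17 genes in all were called. The estimates ran from -0.53 (Mmp12) to 0.42 (Mmp19). For Mmp12 the 95% interval was -1.59 to 0.53, which holds 0 as well as differences as large as the elastase+LPS effect itself.

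The other MMP genes were also without a call. Of the 17 remaining members of the family, 10 passed the filter, and in the averaged elastase+LPS comparison 0 of these were called, 8 had positive and 2 negative log2 fold changes, and the median was 0.19, beside -0.0017 over all genes. Mmp23 had the smallest p, with a log2 fold change of 0.61 and an adjusted p of 0.37 by edgeR's quasi-likelihood test. The collagenase gene Mmp13 is the first gene of the chromosome 9 cluster. It had 0.922 to 1.2 CPM in the PBS libraries and 1.23 to 2.66 CPM with elastase+LPS. Of the 10 tested genes it was the 1 whose elastase+LPS libraries all lay above the PBS libraries, a pattern of 3.35% of all genes. The gap was narrow for a gene with 213 counts over the 8 libraries. No read was counted for Mmp1a, Mmp1b or Mmp20 in any library, and Mmp7 had at most 1 count in a library. Of the 10 genes in the cluster, 5 passed the filter, with Mmp3 (24 to 61 CPM) the highest.

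Genes that activate or restrain MMPs were without a call. Of 19 listed, 16 were tested and 0 called in the averaged comparison, with 7 positive and 9 negative log2 fold changes and a median of -0.0075. At an unadjusted p under 0.05 by edgeR's quasi-likelihood test 1 was higher and 4 were lower, while 6.18% of all genes were higher and 4.21% lower at that level. The log2 fold changes of these 5 were 0.49 for Serpine2, -0.38 for Reck, -0.32 for Adam17, -1.20 for Pzp and -0.57 for Plat. Plat, the tissue plasminogen activator, had the smallest p. Its PBS libraries had 49.1, 64.9, 49.7 and 63.1 CPM and its elastase+LPS libraries 35.2, 35.4, 41.5 and 41.5 CPM, without overlap, for a log2 fold change of -0.57 and an adjusted p of 0.141 by edgeR's quasi-likelihood test.

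Genes listed as other proteases that cut elastin were without a call in the averaged comparison. Of 10 listed, 8 were tested, 0 were called, 8 had positive log2 fold changes and the median was 0.45. At an unadjusted p under 0.05 by edgeR's quasi-likelihood test 4 of the 8 were higher, against 6.18% of all genes. The elastase+LPS libraries lay above all PBS libraries for 2 of the 8, a pattern of 3.35% of all genes. Ctsk, which encodes the collagen- and elastin-cutting cathepsin K, had the smallest p. It had 26.9, 33.9, 31.3 and 21.7 CPM in the PBS libraries and 36.2, 77.3, 55.9 and 74.6 CPM in the elastase+LPS libraries, with a log2 fold change of 1.10 and an adjusted p of 0.118 by edgeR's quasi-likelihood test. The 2 arms of Ctsk did not overlap. The neutrophil serine protease genes Elane and Ctsg had at most 1 and 2 counts in a library. Among 13 inhibitors of such proteases, 7 were tested and 0 called, with a median of 0.37 that fell to 0.12 without the library that stood apart. Slpi, which encodes the secretory leukocyte protease inhibitor, had the smallest p, with 11.4 to 24.4 CPM with PBS, 20.8 to 46.5 CPM with elastase+LPS, a log2 fold change of 0.92 and an adjusted p of 0.244 by edgeR's quasi-likelihood test.

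The ADAMTS family, secreted relatives of the MMPs of which Timp3 inhibits several, held 2 genes that were called lower. Of 18 listed, 16 were tested, 2 fell and 0 rose in the averaged comparison, and the median was -0.33. On either diet alone 0 were called. Adamts17, which is linked to fibrillin microfibrils, had 10.5, 14.3, 11.8 and 12.8 CPM in the PBS libraries and 3.02, 3.28, 5.37 and 2.61 CPM in the elastase+LPS libraries. Its log2 fold change was -1.80 ± 0.24 with an adjusted p of 0.0159 by edgeR's quasi-likelihood test. Adamts9, which cuts the proteoglycan versican, had 37.8 to 74.9 CPM with PBS and 22.3 to 29 CPM with elastase+LPS, with a log2 fold change of -1.06 ± 0.17 and an adjusted p of 0.0369 by edgeR's quasi-likelihood test. Neither gene overlapped between the arms, and both were called by DESeq2. Without the library that stood apart the log2 fold change was -1.82 for Adamts17 and -1.10 for Adamts9. Over 16 fits with different settings and libraries, Adamts17 was called in 12 and Adamts9 in 9. Of 17 matrix proteins that MMPs cut, all 17 were tested and 0 called, with a median of -0.05 that went to -0.24 without the library that stood apart. Fbn1, the main microfibril protein, had the smallest p, with a log2 fold change of -0.64 and an adjusted p of 0.251 by edgeR's quasi-likelihood test.

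Elastin itself (Eln), the substrate of Mmp12 and of the instilled elastase, is named after its values were seen. It had 204 and 287 CPM in the PBS, control diet libraries, 192 and 176 CPM with PBS and TJ-41, 64.8 and 212 CPM with elastase+LPS and control diet, and 141 and 123 CPM with elastase+LPS and TJ-41. Of the 4 elastase+LPS libraries 3 were below every PBS library, and the remaining one was the library that stood apart. The averaged log2 fold change of Eln was -0.66 ± 0.31 with an adjusted p of 0.509 by edgeR's quasi-likelihood test. Without that library it was -1.20 with an adjusted p of 0.00147, and without its partner it was -0.35 with an adjusted p of 0.0901, both by edgeR's quasi-likelihood test.

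**Figure D5:**
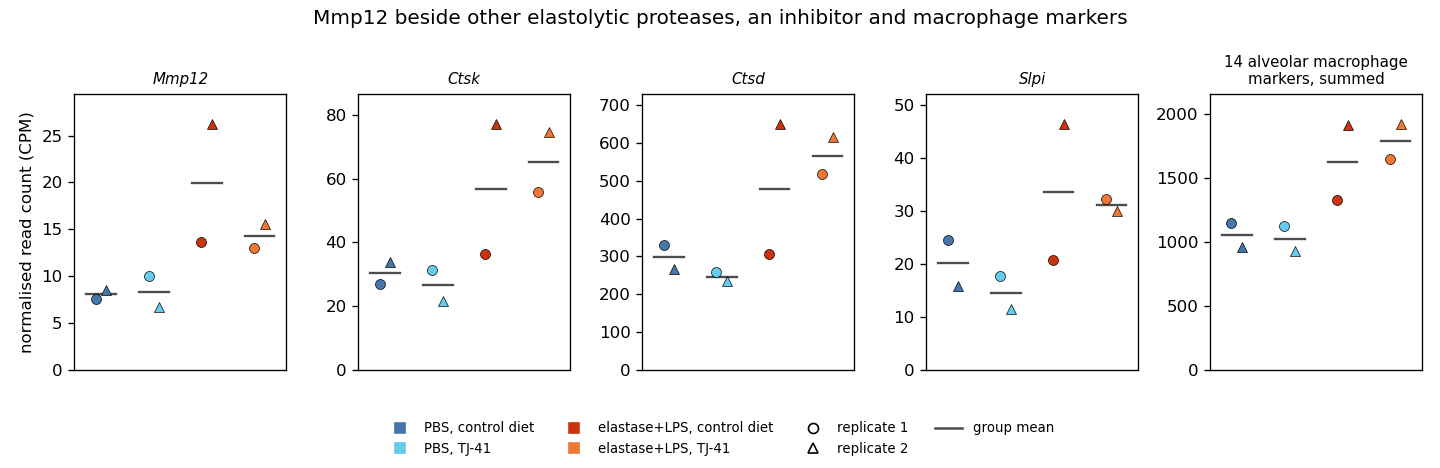
Normalised read count (CPM) of Mmp12, Ctsk, Ctsd and Slpi and the summed CPM of 14 alveolar macrophage markers in the 8 libraries, on axes from 0, with groups by colour, replicates by shape and group means as lines. The marker sum lies between 925 and 1143 CPM in the PBS libraries and between 1326 and 1925 CPM in the elastase+LPS libraries, and Mmp12 and Ctsk likewise do not overlap.

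Marker genes of macrophages, the main source of Mmp12, are given beside it because in whole lung RNA fewer cells of a type and less RNA per cell cannot be told apart. The sum of 14 alveolar macrophage markers was 925 to 1143 CPM with PBS and 1326 to 1925 CPM with elastase+LPS. A large part of that sum was Chil3, which encodes a chitinase-like lectin and had 371 to 476 CPM with PBS and 625 to 1387 CPM with elastase+LPS (log2 fold change 1.31, adjusted p = 0.0586 by edgeR's quasi-likelihood test). Without Chil3 the sums were 542 to 706 CPM with PBS and 529 to 772 CPM with elastase+LPS, a split made after the values were seen. Of the 14 markers 7 had positive and 7 negative log2 fold changes and 0 were called. Interstitial macrophage and monocyte markers summed to 387 to 465 CPM with PBS and 450 to 483 CPM with elastase+LPS, with 0 of 10 called, and Ms4a7, which had the smallest p, had a log2 fold change of 0.76 and an adjusted p of 0.11 by edgeR's quasi-likelihood test. None of these markers was at 0 in all libraries. Their part in the Mmp12 values was not tested.

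Other marker lists overlapped in part. Neutrophil markers summed to 255 to 363 CPM with PBS and 216 to 476 CPM with elastase+LPS, and of 9 tested 1 rose, Cd177, a neutrophil surface protein (log2 fold change 1.80, adjusted p = 0.0442 by edgeR's quasi-likelihood test). In that list 6 of 9 log2 fold changes were negative and the median was -0.079. Cd177 was called in 7 of 16 fits with different settings and libraries, with a log2 fold change of 1.39 without the library that stood apart. Fibroblast and mesenchymal markers, from cells that make much of the Mmp2 and Timp2 of a tissue, summed to 3155 to 3458 CPM with PBS and 2954 to 4196 CPM with elastase+LPS, with 0 of 10 called. B and plasma cell markers summed to 704 to 1278 CPM with PBS and 2021 to 3962 CPM with elastase+LPS, and 2 of 8, Jchain and Ighm of antibody chains, rose. Of these 8 markers 4 had positive and 4 negative log2 fold changes, with a median of 0.14. Endothelial markers summed to 3539 to 4001 CPM with PBS and 2972 to 3372 CPM with elastase+LPS, with 0 of 8 called. None was called among the markers of smooth muscle (374 to 741 CPM over the 8 libraries), airway epithelium (14064 to 32539 CPM), alveolar epithelium, mesothelium (122 to 312 CPM), heart muscle, fat (19.8 to 56.8 CPM) and T cells (61.9 to 105 CPM). Without the library that stood apart, the smooth muscle genes Actg2 and Cnn1, 2 of 6, were called lower, and the median of that list went from -0.091 to -0.49. The part of these lists in the values of the 10 genes was not tested.

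The genes whose log2 CPM followed Mmp12 most closely over the 8 libraries were Hnrnpul1 (Pearson r = 0.979), Sf3b2, Smoc1, Vpreb3 and Arg1 (0.970), among 18038 genes that averaged 1 CPM or more. These are descriptions of 8 libraries, and no p is given. For Mmp9 they were Prpf8 (0.981), Pitrm1, Gm6685, Dnmt1 and 1700019D03Rik, for Mmp2 Calhm5 (0.993), Khsrp, Dio1, Tnfrsf4 and Rab20, and for Timp1 Gnb1 (0.994), Pla2g12a, Atf5, Cnpy4 and Rnf8. The library that stood apart enters all of these values.

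Some of the 10 genes share sequence or position with others, which limits what an unstranded count can separate, and the strand setting of the counting is not given in the sources used here. Timp1, Timp3 and Timp4 each lie within a synapsin gene on the opposite strand (Syn1, Syn3 and Syn2). Timp3 shares 1733 exon bases (21.3% of its own) with Syn3, which had 1.35 to 2.1 CPM, and Timp4 shares 90 bases (1.53%) with Syn2, which at 11.9 to 28.6 CPM was counted above Timp4. Mmp19 shares 789 exon bases (22.3%) with Tmem198b, at 10 to 13.7 CPM. Stretches of 50 bases in the transcripts were matched on both strands. Mmp19 shares 24.7% of them with Tmem198b and Gm47093. Timp3 shares 21.4% with 569 other genes, a share that takes in the bases opposite Syn3 (21.3% of its exon bases). Mmp3 shares 8.39% with 2 other genes, Gm15244 and Mmp10 of the same cluster. Mmp12 shares 2.53%, whereas Mmp2, Mmp9, Timp1 and Timp2 share none. The Mmp19, Timp3 and Timp4 values are uncertain to that extent.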

How the data were processed

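The deposited files hold whole-number read counts per Ensembl gene for each of the 8 libraries, without normalization by the authors. HISAT2, edgeR and the mouse build mm10 are named in the submitters' processing notes, and the study's methods name CLC Genomics Workbench, R and edgeR. How reads were assigned to genes (program, annotation, strand, multiple hits) and the tool versions are not given in the sources used here. These choices bear on Mmp19, Timp3 and Timp4, which overlap other genes.

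Groups were taken from the sample labels, which give the diet as TJ41 in the titles. Of 52636 identifiers, 52489 were found in GENCODE M21 (GRCm38). The 10 genes and all gene lists were chosen with earlier results of these data known. Genes were kept by filterByExpr (minimum count 10, minimum total 15), scaled by TMM and tested with edgeR 4.0.16 in R 4.3.3 by the quasi-likelihood test on group means (4 residual degrees of freedom), with Benjamini-Hochberg adjustment over 20546 genes. Calls needed an adjusted p under 0.05 together with an absolute log2 fold change above 1, the thresholds of the study. The SE is the log2 fold change over the square root of F. CPM are TMM-scaled, and RPKM use the exon union length. DESeq2 1.42.0 was an alternative. Named genes were the 10, of each list every gene called or otherwise that with the smallest p in the averaged comparison (marker lists in brief), and for Mmp12, Mmp9, Mmp2 and Timp1 the 5 genes with the highest Pearson r. Outside that rule Ctsd is plotted and Eln is described. Further genes named outside it include Mmp7, Mmp8, Mmp13, Serpine2, Reck, Adam17, Pzp, Elane, Ctsg, S100a8, S100a9, Ltf and Actg2. The fit was also run on simulated counts, and its outcome there is not reported here. Promoters came from RefSeq (GRCm38.p6).

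Depth was 18767295 to 20888042 counts per library. Replicates differed by a median of 3.44 to 24.8 times the counting variance, so none was a copy of another. Replicate differences correlated between groups at -0.234 to 0.108, so the replicate numbers did not pair the libraries.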

Additional observations from a re-analysis of the deposited data

Results flagged for a closer look

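Mmp19 was the one value that stood out within an arm. In the 4 elastase+LPS libraries it had 20.4, 22.4, 21 and 34.7 CPM, and the last value, from replicate 2 of the TJ-41 diet group, was farther from the other values than Dixon's 95% critical value for 4 samples allows. This check was made for 20 sets of 4 libraries, the 10 genes in each arm, and chance alone flags about 1 in 20. In the PBS libraries 2 values, 31.6 and 29.6 CPM, were close to it.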

How the results depend on the processing

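With 2 libraries a group, most of these values rest on few libraries. Of 516 log2 fold changes under other settings or without a library, those of the 10 genes in the elastase+LPS comparisons and of Mmp12 in the diet comparisons, 475 kept their direction and side of the threshold, 9 passed the threshold and 32 changed sign. The cause of these changes was not tested. The number of the 10 genes called on the control diet was 1 (Mmp12) by the edgeR exact test and by DESeq2, and 0 to 3 when any 1 library was left out. With diets averaged it was 1 (Mmp12) by DESeq2 and with all genes of at least 1 count, and 0 to 2 when any 1 library was left out. In the diet comparison of elastase+LPS mice it was 0 to 1 when any 1 library was left out. With the replicate number as a block the number called was 0 in each comparison, and the block changed no call of the 10 genes. A block with the numbers crossed in the elastase+LPS, control diet group was added after seeing the data. It was fitted for the elastase+LPS comparison on the control diet only, where the number called was also 0. Over all genes, DESeq2 called 171 genes on the control diet, 125 on the TJ-41 diet, 245 with diets averaged, 10 and 12 for the diet in PBS and elastase+LPS mice and 17 for the interaction, against 25, 16, 91, 0, 1 and 0. The edgeR exact test called 210 and 137 genes on the 2 diets and 6 for either diet comparison, testing all genes with at least 1 count called 147, 89 and 278 genes in the 3 elastase+LPS comparisons, and a fit to only the TJ-41 groups called 248. When any 1 library was left out, 3 to 1343 genes were called on the control diet, 2 to 168 on the TJ-41 diet and 15 to 873 with diets averaged.

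When a library was left out, the control diet log2 fold change ran from -0.12 to 1.30 for Mmp2, -0.76 to 0.08 for Mmp9, -0.31 to 0.37 for Mmp14, -0.56 to 0.037 for Mmp19, -1.24 to 1.09 for Timp1 and -0.10 to 0.47 for Timp2. On the TJ-41 diet it ran from -0.31 to 0.24 for Mmp9, -0.018 to 0.13 for Mmp14, -0.27 to 0.45 for Mmp19, -0.20 to 0.13 for Timp1 and -0.26 to 0.23 for Timp4. With diets averaged it ran from -0.41 to 0.012 for Mmp9, -0.12 to 0.21 for Mmp14, -0.29 to 0.089 for Mmp19 and -0.63 to 0.54 for Timp1. The diet effect on Mmp12 ran from -0.29 to 0.32 in PBS mice and from -0.87 to 0.081 in elastase+LPS mice, and the interaction from -0.92 to 0.036. The TJ-41 diet value of Timp4, at 0.00097, changed sign under RLE normalization (-0.00097), with all genes of at least 1 count (-0.001), with a mean of at least 1 CPM (-0.0014), with the replicate block (-0.029) and by DESeq2 (-0.0011).

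With the longest transcript in place of all exons, the mean RPKM became 2.83 for Mmp12, 23.2 for Mmp14, which placed it above Mmp3, and 159 for Timp3. In RPKM in place of CPM, the ratio of Mmp12 to Timp1 was 0.101 with PBS and 0.213 with elastase+LPS, and that of the 6 MMPs to the 4 TIMPs 0.282 and 0.292. By Spearman correlation 1 of the 5 genes most like Mmp12, 3 of those most like Mmp9 and 1 of those most like Mmp2 remained.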
